A study of Mus musculus and Homo sapiens with 27 samples.

Results

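The leukocyte CD antigens described here are the genes on the human lymphochip whose symbol is CD, a number and at most letters after it. 50 of the 4604 human genes with a single symbol met that rule, after 13 antigens (CD79A, CD79B, CD22, CD38, CD28, CD9, CD74, CD40, CD80, CD86, CD83, CD69 and CD44) had been left out by name. The symbols CD2AP, an adaptor protein inside the cell, and CD5L, a protein secreted by macrophages, also match the letters of the rule, so 48 of the 50 are surface antigens. They were grouped by the lineage on which the antigen is best known. There were 13 T and NK cell antigens, 12 of myeloid and dendritic cells and 7 of B cells. A further 5 are found on leukocytes of several lineages and are called pan-leukocyte here. The remaining groups were 9 found on most cells, called broadly expressed, and 2 of stem, endothelial or stromal cells. The genes are carried by 145 spotted features, 1 feature for 11 of them and up to 7 for the others.

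CD numbers name cell-surface molecules by the antibodies that bind them, and they are the everyday vocabulary for telling leukocytes apart. T cells are recognised by the CD3 chains and the coreceptors CD4 and CD8, monocytes by the lipopolysaccharide coreceptor CD14, and B cells by molecules such as CD72 and CD37. Others, such as the complement inhibitors CD55 and CD59, sit on nearly every cell. A B cell that becomes a plasma cell exchanges much of its surface, and IRF4 is a transcription factor of that step, acting with Blimp-1, the product of PRDM1.

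The cells were OCI-Ly7, an established line of human diffuse large B-cell lymphoma that the labels place in the germinal centre B-cell-like class. Cells carrying human IRF4 in the Vxy expression vector were set against cells carrying the empty Vxy vector with puromycin resistance, both grown in IMEM medium with serum. Each array was hybridised with both RNAs, empty vector in Cy3 and IRF4 vector in Cy5, for 1 array at day 2, 2 arrays at day 3 (repeats 1 and 2) and 1 array at day 5. In the series' design text the control is non-transduced; here the labels were followed. No array had the dyes swapped, so a dye effect on a gene and its response to IRF4 cannot be told apart. The design text speaks of biological repeats. No label says that the 4 arrays came from separate cultures, so p-values measure the spread between these arrays, which may be partly technical.

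All values are log2 ratios, Cy5 over Cy3 and so IRF4 vector over empty vector, with the median of each array at 0. That direction was assumed from the dyes and is not stated in the sources used here; turned round, every sign below would turn. PRDM1 had ratios of 1.51 on day 2, 1.33 and 1.64 on day 3 and 2.84 on day 5. IRF4 itself had a mean of -0.03 ± 0.30 (SE, n = 4) over 4 features. A single IRF4 feature was above 0 on all 4 arrays, at 0.60, 0.64, 0.86 and 0.67, and the other features were above 0 only on day 3 repeat 1. The 15246 deposited values of an array had a standard deviation of 1.51 on day 2, 1.30 and 1.25 on day 3 and 2.04 on day 5, and correlations between arrays over features lay between 0.31 and 0.46. A ratio carries no level, so it cannot show whether a B-cell marker was present. Of the marker lists, 9 of 10 B-cell markers were measured, with a median ratio of -0.05. For T and NK cells 8 of 10 were measured, with -0.54, and for myeloid cells 6 of 10, with -0.49. For plasma cells 7 of 8 were measured, with 1.83, which is the mean of PRDM1. Means above 0 numbered 3 of 9, 1 of 8, 1 of 6 and 4 of 7 in that order, beside 1992 of all 4604 genes. The plasma cell means ran from MZB1 at -0.23 to TNFRSF17 at 3.36. The T and NK list holds the members CD3D, CD3E, CD3G, CD2 and CD247, and the myeloid list holds CD14 and CD68. The medians of these lists are therefore partly those of the members. OCI-Ly7 is a B-cell line, so the T, NK and myeloid medians are not read here as numbers of such cells. Within the line, fewer cells with an RNA and less of that RNA per cell cannot be told apart in bulk RNA.

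The first question was which CD antigens differed between IRF4-vector and empty-vector cells over the 4 arrays. None of the 50 genes passed the test, limma against a ratio of 0 with Benjamini-Hochberg adjustment over all 4604 genes at 0.05. In all genes 0.0434% were called higher and 0.0652% lower, 5 genes in all (0.109%), so the count of 0 among the members does not set them apart. At an unadjusted p under 0.05 there were 11 members beside 23.9% of all genes. Of these 11, 4 had a 95% interval above 0 and 7 had one below, beside 364 and 735 of all 4604 genes. The lowest adjusted p of a member in limma was 0.130, that of CD55. With the arrays weighted by their fit to each other, limma called 2 members, CD55 higher and CD14 lower, where 5.69% of all genes were called, 1.76% higher and 3.93% lower. After quantile normalization no member was called, beside 3.5% of all genes (0.348% higher and 3.15% lower), and 18 members had an unadjusted p under 0.05, beside 30.7% of all genes. A fit to single features called none of the members' features and none of the other features, 0.0% of 10169.

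Across the 50 genes the median of the mean ratios was -0.25, beside -0.14 for all genes. By lineage the medians were -0.57 for T and NK cell antigens, -0.32 for myeloid and dendritic cell antigens, -0.27 for B-cell antigens, -0.15 for pan-leukocyte antigens and 0.48 for broadly expressed antigens. Without day 5 the B-cell median was -0.07, the pan-leukocyte median 0.0033 and the broadly expressed median 0.31, and without day 2 the last was 0.83. Above 0 on all 4 arrays were 6 members, beside 17.0% of all genes, and 5 of these were broadly expressed antigens. A further 7 members were below 0 on all 4 arrays, beside 21.0% of all genes, and none of these was broadly expressed. Among the members' 145 features 28 were above 0 on all 4 arrays, beside 19.6% of all features with 1 symbol, and 21 were below, beside 18.5%. These lists had no test of their own.

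**Figure D1:**
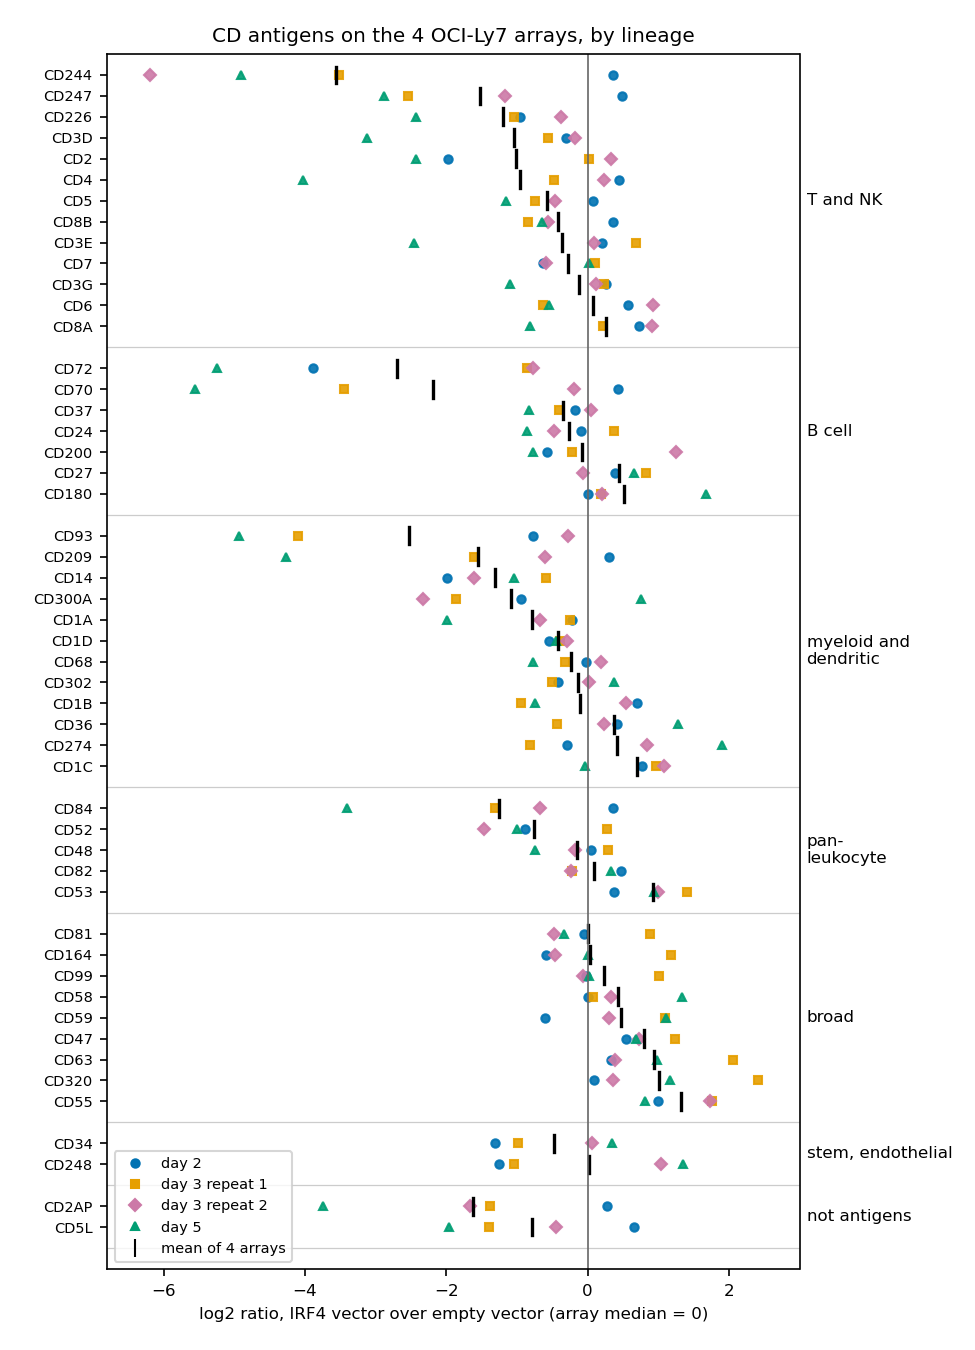
Log2 ratios (horizontal axis, IRF4 vector over empty vector, array median at 0) of the 50 genes on the 4 arrays, with 1 row per gene, grouped by lineage, and a black bar at the mean of the 4 arrays. The broadly expressed antigens lie mostly right of 0, from a mean of 0.01 for CD81 to 1.32 for CD55, and the lowest values of T and NK cell antigens are mostly those of day 5.

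The broadly expressed antigens gave the highest values. CD55, the decay-accelerating factor that protects cells from complement, had ratios of 1.00 on day 2, 1.76 and 1.73 on day 3 and 0.81 on day 5. All 4 arrays were above 0, with a mean of 1.32 ± 0.30 (SE, n = 4), which is 2.50-fold, and an adjusted p of 0.130 in limma. Over the alternative settings that p lay between 0.0361 and 0.267. Among the 5 CD55 features, 3 were above 0 on all 4 arrays. The highest of them had ratios of 2.63, 5.62, 6.04 and 4.38, and the lowest had 1.23, -1.81, 0.48 and -4.14, so the features of CD55 differed from each other by more than the arrays did. The values of 5.62, 6.04 and -4.14 were at a whole-number step, and without them the mean of CD55 was 1.12. Such a step is a value whose distance from the commonest value of its array is within 0.001 of log2 of a whole number up to 64, as ratios of whole-number signals give. With the commonest value shifted, 0.49% to 1.00% of an array's values met that rule, beside 2.05% to 10.9% as measured.

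CD63, CD53 and CD47 had smaller means than CD55, and feature means that lay closer together; CD63 and CD47 are described after their values were seen. CD47, which signals to macrophages through SIRPA, had ratios of 0.54, 1.24, 0.72 and 0.69 in the order of day 2, day 3 repeats 1 and 2, and day 5. In CD47, 4 of 5 features were above 0 on all 4 arrays, and its array standard deviation of 0.30 was below the median of 0.79 for members and 0.69 for all genes. CD63, a tetraspanin of lysosomes and secretory granules, had 0.34, 2.05, 0.38 and 0.99 in that order, with 3 of 3 features above 0 on all arrays. Its highest value came from day 3 repeat 1. CD53, a tetraspanin of leukocytes and the highest of the pan-leukocyte list, had 0.37, 1.41, 1.00 and 0.94, with 5 of 7 features above 0 on all 4 arrays. In limma the adjusted p was 0.169 for CD47, 0.199 for CD63 and 0.157 for CD53, and each 95% interval lay above 0 without adjustment.

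CD320, the receptor that takes up vitamin B12 bound to transcobalamin, had ratios of 0.09, 2.41, 0.36 and 1.17, all above 0, with a mean of 1.01 ± 0.44 (SE, n = 4), which was 0.54 without day 3 repeat 1 and 0.53 with array weights. CD58, the adhesion partner of CD2, is given after its values were seen, at 0.0053, 0.072, 0.330 and 1.33, so that its mean of 0.43 rested mostly on day 5. The complement inhibitor CD59 was below 0 on day 2, at -0.60, and above 0 on the other arrays, at 1.10, 0.30 and 1.11. CD99, CD164 and the tetraspanin CD81 had means of 0.24, 0.03 and 0.01, and on each of them day 3 repeat 1 was the highest array, at 1.01, 1.18 and 0.88. All 9 means of the list were above 0 when arrays were centred on their median, beside 1992 of all 4604 genes. In the values as deposited and after quantile normalization 7 of 9 were above 0, beside 1527 and 1488 of all genes. Under both of these scalings the means of CD81 and CD164 were below 0. Those scalings moved the median of all genes from -0.14 to -0.33 and -0.35, and the median of the list from 0.48 to 0.28 and 0.21.

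**Figure D2:**
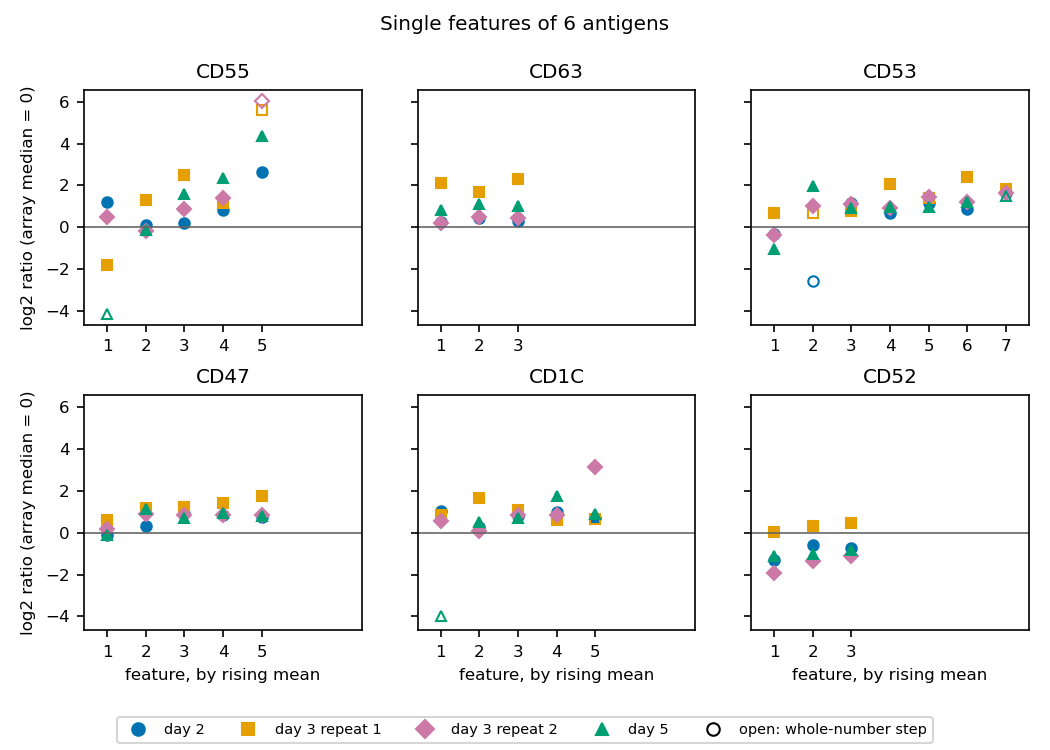
Log2 ratio (vertical axis, array median at 0) of each single feature of 6 antigens on the 4 arrays, features ordered by their mean, with open symbols for values at a whole-number step. The features of CD63, CD47 and CD52 lie close together, while those of CD55 run from -4.14 to 6.04.

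The other pan-leukocyte antigens did not share the values of CD53. CD84, a self-binding receptor of the SLAM family, had ratios of 0.36, -1.31, -0.67 and -3.41, a mean of -1.26 ± 0.61 (SE, n = 4) with an adjusted p of 0.253 in limma. Only day 2 was above 0, and day 5 was the lowest; without day 5 the mean of CD84 was -0.54, and without whole-number steps -0.87. CD52, the small glycoprotein bound by alemtuzumab, is described after its values were seen, at -0.881, 0.279, -1.46 and -0.996. Its 3 features gave the same order of arrays at both ends, day 3 repeat 1 highest and day 3 repeat 2 lowest, so the day 3 repeats lay on opposite sides of 0. CD48, the ligand of CD244, and the tetraspanin CD82 had means of -0.15 and 0.09, with arrays on both sides of 0; the CD82 mean was below 0 in the values as deposited and after quantile normalization.

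Among the 13 T and NK cell antigens, 2 means were above 0 and 11 below, beside 1992 above and 2611 below among all 4604 genes. The lowest of all members was CD244, a SLAM-family receptor of NK cells, with 0.36 on day 2, -3.52 and -6.20 on day 3 and -4.90 on day 5. Its mean was -3.56 ± 1.02 (SE, n = 4) from a single feature, and its adjusted p was 0.147 in limma. CD247, the zeta chain of the T-cell receptor, had 0.49, -2.55, -1.17 and -2.88, also above 0 on day 2 only. Its 3 features differed, at -6.42, -1.18 and -0.04 on day 3 repeat 1 and at -4.40, -4.74 and 0.51 on day 5. CD226, an activating receptor of NK and T cells, was below 0 on all 4 arrays, at -0.96, -1.05, -0.38 and -2.43, with an adjusted p of 0.163 in limma.

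The CD3 chains of the T-cell receptor complex had day 5 as their lowest array. CD3D had -0.30, -0.56 and -0.18 on the first 3 arrays and -3.13 on day 5. CD3E and CD3G, given after their values were seen, were above 0 on the first 3 arrays and at -2.45 and -1.10 on day 5. The features within a chain differed on day 5: those of CD3G were -6.87, -2.97, 1.11, 1.31 and 1.94 there, and those of CD3E were -5.31 and 0.41. The coreceptor CD4, also described after its values were seen, had 0.44, -0.47, 0.24 and -4.03, while CD8A, the highest of the list, had 0.73, 0.21, 0.91 and -0.82. The mean of CD8A was 0.26, and -0.05 when the median of its 3 features was used.

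CD2, the T-cell adhesion receptor for CD58, had -1.98, 0.01, 0.33 and -2.43 from a single feature, so that days 2 and 5 were low and both day 3 arrays near or above 0. CD5, CD7 and CD8B had means of -0.57, -0.27 and -0.42, and CD6, a scavenger-type receptor, 0.08, which was below 0 in the values as deposited and after quantile normalization. In all, 9 of these 13 antigens had their lowest value on day 5, beside 36.5% of all genes. Without day 5 the median of the list was -0.35, and -0.09 over all genes. On day 5 7 of the 33 feature values of the list, 21.2%, were at a whole-number step, beside 9.98% of the values of all features with 1 symbol on that array. Single-channel signals were not analysed here, and the part of the steps in the day 5 values was not tested. With all steps left out, the means of CD8A, CD226 and CD8B went from 0.26, -1.20 and -0.42 to 0.65, -0.79 and -0.011, those of CD247 and CD4 from -1.53 and -0.96 to -1.82 and -1.10, and the median of the list stayed at -0.57.

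**Figure D3:**
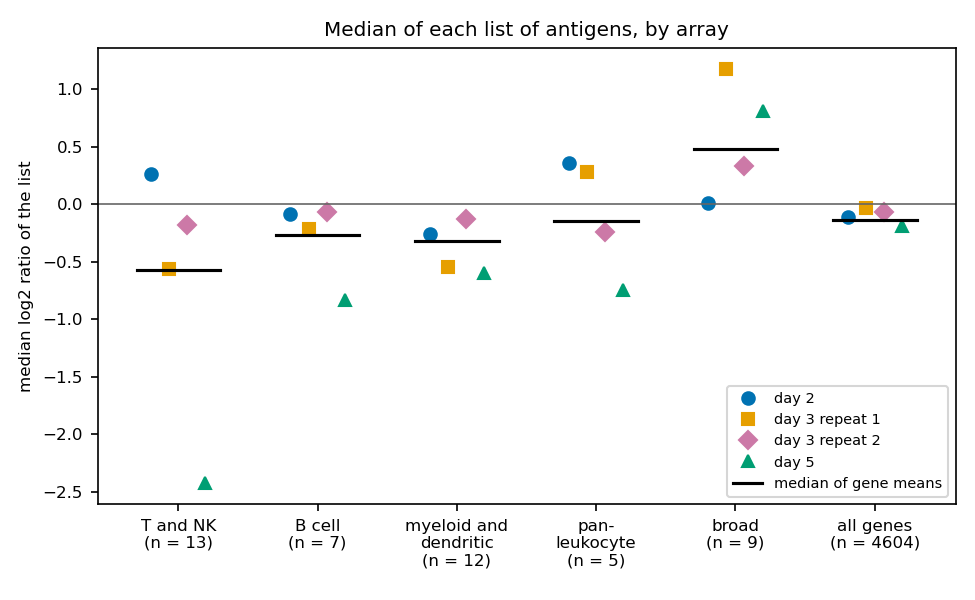
Median log2 ratio (vertical axis) of 5 lists of antigens and of all 4604 genes on each of the 4 arrays, with a black line at the median of the gene means. The T and NK list has its lowest median, -2.43, on day 5, and the broadly expressed list its highest, 1.18, on day 3 repeat 1.

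The B-cell antigens were divided. CD72, an inhibitory coreceptor of B cells, had -3.89 on day 2, -0.86 and -0.78 on day 3 and -5.25 on day 5. All 4 arrays were below 0 and so were all values of both features, with a mean of -2.70 ± 0.82 (SE, n = 4) and an adjusted p of 0.157 in limma. One CD72 feature was at -6.53 and -8.43 on days 2 and 5, and the other at -1.26 and -2.07, so the sign was shared and the size was not. CD70, the ligand of CD27, had 0.43, -3.45, -0.19 and -5.56 from 1 feature.

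CD70 was thus low on day 3 repeat 1 and day 5 and near 0 on the other arrays. These pairs of arrays are also those of the lower and the higher range of the numbers that the authors' database gave the arrays. The mean of CD70 was -4.50 in the lower range and 0.12 in the higher. Its receptor CD27, also a marker of memory B cells and plasma cells, had 0.38, 0.82, -0.07 and 0.66, a mean of 0.45. The CD27 features were at -0.65, -0.36, -0.09 and 3.72 on day 5, so the last of them gave that array its value above 0. CD180, a Toll-like receptor relative on B cells, was the highest of the list with a mean of 0.51, which came mostly from 1.67 on day 5. On that array 1 of its 5 features was at 5.415, a whole-number step, and without steps the mean of CD180 was 0.28. CD37, a tetraspanin, CD24, a lipid-anchored glycoprotein of maturing B cells, and CD200, an inhibitory ligand, had means of -0.34, -0.27 and -0.07, and CD200 turned to a mean above 0 when whole-number steps were left out.

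Of the 12 myeloid and dendritic cell antigens, 3 means were above 0 and 9 below, beside 1992 above and 2611 below among all 4604 genes. CD14 had -1.99, -0.59, -1.60 and -1.04 from a single feature, below 0 on all 4 arrays, with a mean of -1.31 ± 0.33 (SE, n = 4). Its adjusted p in limma was 0.133, between 0.0306 and 0.287 over the alternatives. CD93, a receptor of monocytes and endothelial cells, had -0.77, -4.10, -0.27 and -4.94, low on the same arrays as CD70. Its 2 features were at -7.68 and -0.53 on day 3 repeat 1, and at -4.68 and -5.19 on day 5. CD209, the lectin DC-SIGN of dendritic cells, had 0.30, -1.60, -0.61 and -4.27 from 1 feature, with a mean of -1.55 that became -0.64 without whole-number steps. CD300A, an inhibitory receptor, had -0.94, -1.86, -2.33 and 0.76.

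The CD1 molecules, which present lipids to T cells, lay on both sides of 0. CD1C, an antigen of dendritic cells and of some B cells, was the highest of the myeloid and dendritic list, at 0.77, 0.97, 1.08 and -0.03, with 4 of 5 features above 0 on all arrays. CD1A and CD1D were below 0 on all 4 arrays, with means of -0.78 and -0.42, and CD1B had a mean of -0.11 that turned above 0 without whole-number steps. The CD1D mean joins features that differed, at -1.89, -0.15, -1.42 and -1.69 and at 0.80, -0.64, 0.84 and 0.80, so its small standard deviation of 0.11 over arrays is that of their average. The checkpoint ligand CD274 (PD-L1) had -0.30, -0.81, 0.85 and 1.91, and CD36, CD68 and CD302 had means of 0.37, -0.23 and -0.13. CD34, a sialomucin of blood stem cells and endothelium, had -1.31, -0.99, 0.06 and 0.34, and CD248, a stromal antigen, had -1.25, -1.04, 1.04 and 1.35.

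CD2AP and CD5L, which carry a CD symbol without being surface antigens, had 0.28, -1.38, -1.66 and -3.74, and 0.65, -1.39, -0.45 and -1.96. Both were above 0 on day 2 only and lowest on day 5. Their means were -1.62 and -0.79.

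The second question was whether ratios changed with the day after the vector. In limma the slope per day passed the test in none of the 50 members and in 0.0% of all 4604 genes. At an unadjusted p under 0.05 there were 9 members, all with slopes below 0, beside 12.3% of all genes with slopes either way. CD2AP and CD5L, which are not surface antigens, were among these 9. At any p, slopes were below 0 in 31 of 50 members and in 2535 of all 4604 genes. After quantile normalization there were 2 members, beside 5.23% of all genes. The median slope of the members was -0.25 per day and that of all genes -0.04. The lowest adjusted p in limma was 0.140, that of CD209, whose slope was -1.54 ± 0.28 per day (SE, n = 4). CD70 had a slope of -1.97 ± 0.50 per day with an adjusted p of 0.187 in limma. Without the day 2 array limma called 4 members lower with day (CD209, CD4, CD70 and CD72), beside 5.63% of all genes. Without day 3 repeat 2 it again called 4 lower (CD209, CD244, CD4 and CD70), beside 2.74% of all genes, and without day 5 it called CD244 lower, beside 0.174%. Without day 3 repeat 1 no member was called. Days 2 and 5 have 1 array each, so the spread behind these calls comes from the day 3 repeats or from departures from a straight line.

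The members' features and arrays varied among themselves. In 16 of the 39 genes with several features all feature means were on the side of the gene's mean, and in 23 they were not. The gene mean kept its sign without each array in turn in 37 of 50 members and turned in 13. In 25 of those 37 it moved by over 1.5 times without at least 1 of the arrays. For these counts of features and arrays no share over all genes is given, so they do not set the members apart. In 34 of 50 members, 68.0%, the mean had the same sign in both database ranges, beside 70.4% of all genes. Day 5 was the lowest array in 24 of 50 members, 48.0%, beside 36.5% of all genes. Of the members' 580 feature values 35 were at a whole-number step, 6.03%, beside 5.14% of the values of all features with 1 symbol.

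CD antigens that go under other symbols gave a wider frame. Of 95 of them measured here, limma called 1 higher and 1 lower. TNFRSF17, the plasma cell receptor BCMA, had 2.63, 3.88, 3.55 and 3.38, a mean of 3.36 ± 0.31 (SE, n = 4) with an adjusted p of 0.0455 in limma. ICOSLG, the ligand of the T-cell costimulator ICOS, had -3.49, -3.77, -2.41 and -3.25, a mean of -3.23 ± 0.32 (SE, n = 4) with the same adjusted p in limma, and 2 of its 8 values were at a whole-number step. Neither call held in the fits without 1 array, whichever array was left out, and over the alternatives the adjusted p lay between 0.0144 and 0.184 for TNFRSF17 and between 0.0216 and 0.191 for ICOSLG.

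The median of these 95 was -0.34. Their 10 T and NK cell antigens had a median of -0.66, from SLAMF6 at -2.05 to KLRD1 at 0.56, and their 18 myeloid and dendritic antigens -0.47, from TLR2 at -2.58 to PLAUR at 0.76. Their 25 broadly expressed antigens had a median of -0.19, below 0 unlike the 9 members of that kind, from the integrin chain ITGB1 at -2.51 to LAMP2, a lysosomal membrane protein, at 1.42. The difference between these lists was not tested. The B-cell antigens under other symbols had a median of -0.49, the pan-leukocyte ones 0.03, from LAIR1 at -0.35 to EVI2B at 0.78, and those of stem, endothelial and stromal cells -0.20, from PROM1 at -2.23 to MCAM at 0.80. Among the 13 antigens left out by name none was called by limma, with 3 at an unadjusted p under 0.05. The lowest was CD79B, a signalling chain of the B-cell receptor, at -1.86 ± 0.36 (SE, n = 4), and the highest CD38, an ectoenzyme that plasma cells carry at a high level, at 1.596 ± 0.374 (SE, n = 4).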

How the data were processed

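For each lymphochip array, a spotted cDNA array, the authors deposited 1 log2 ratio per feature, with Cy3 for the empty vector and Cy5 for the IRF4 vector, per the labels. The sources used here do not give scanner, background correction or normalization. The base was taken as 2, since values just below the commonest value of each array lay at distances of log2 of 2, 3 and 4. Per the labels, Trizol was used for total RNA and the dyes went in by reverse transcription. The number of arrays limits the precision.

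The median of the 15246 features was set to 0 on each array. Of these 10169 had 1 symbol in the deposited platform annotation, 4 had several and 5073 none. A gene's value is the mean of its single-symbol features. Ratios were tested against 0, and for a slope per day, with limma 3.58.1 in R 4.3.3 (2-sided, Benjamini-Hochberg over all genes, threshold 0.05), checked on simulated data. Members and lists were chosen with earlier results of these data known. Named by rule were members past the threshold, the 15 with the largest absolute mean, the ends of each list, and the same for other CD antigens without the 15; the other members are given so that none is left out. Alternatives covered scaling, feature summary, large values, array weights, a block for the database range, and each array left out. The mouse arrays of the series were not used here.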

Additional observations from a re-analysis of the deposited data

Results flagged for a closer look

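Among the 50 members, 4 had 1 array far from the other 3. Its gap to the nearest array, over the range, was above the 95% critical value of Dixon's test. Chance alone gives this in about 1 of 20 genes if the 4 arrays share the same normal spread. The deposited values had standard deviations from 1.25 to 2.04, widest on day 5. The count over all genes was not made, so these members are not set apart from other genes. Day 5 stood apart for 3 of them. CD180 was at 1.67 on day 5, where 1 of its 5 features was at a whole-number step, and its next highest array at 0.20. CD3D was at -3.13 on day 5, and its next lowest array at -0.56. CD3G was at -1.10 on day 5, and its next lowest array at 0.12. CD99 was at 1.01 on day 3 repeat 1, and its next highest array at 0.02.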

How the results depend on the processing

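The count of 5 genes called over all genes depended on the settings: 1 as deposited, 1 centred over features with 1 symbol, 1 with the median of features, 0 with day 3 averaged first, 0 with the database range as a block, 0 with single features, 161 after quantile normalization (16 higher and 145 lower, beside 2 and 3), 262 with array weights, and 0 to 1 without 1 array. Leaving out whole-number steps, chosen after seeing the data, gave 0. The count of 0 members became 2 with array weights, where CD55 had 1.45 (adjusted p = 0.0361 in limma) and CD14 -1.57 (adjusted p = 0.0306 in limma). For the slope, leaving out 1 array gave 0 to 277 genes and 0 to 4 members, with the extremes without day 3 repeat 1 and without day 2; at an unadjusted p under 0.05 the slope had 9 members and 567 genes, and 2 and 241 after quantile normalization. Means near 0 changed sign: CD248 (0.03) was -0.17 as deposited, -0.36 after quantile normalization and -0.42 to 0.45 without 1 array, with -0.31 without day 3 repeat 2. CD81 (0.01) was -0.19 as deposited, -0.23 after quantile normalization, -0.24 with array weights, -0.060 with day 3 averaged and -0.29 to 0.17 without 1 array. CD34 (-0.48) was 0.11 and CD8A (0.26) -0.047 with the median of features. The cause of these changes was not tested. The list medians stayed within 1 standard deviation of their arrays, but without day 5 the B-cell median went from -0.27 to -0.07 and the pan-leukocyte one from -0.15 to 0.0033, and that of the 2 stem and stromal antigens went from -0.22 to 0.13 without day 2 and to 0.067 with the median of features. No paired analysis was possible because each ratio already joins both RNAs on 1 array.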
